A study of Homo sapiens with 4 samples.

Results

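The BCL2 family and the inhibitor of apoptosis proteins (IAPs) decide whether a stressed cell lives. Pro-survival BCL2 members hold the effectors BAX and BAK1 in check at the mitochondrial outer membrane, BH3-only proteins relieve that hold, and once cytochrome c is released the IAPs restrain caspases and neighbouring signalling. TIA1 is an RNA-binding protein that prefers U-rich and AU-rich stretches of mRNAs and takes part in splicing, translational silencing and stress granules. Squamous carcinomas often rely on MCL1 and BCL2L1 for survival.

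The genes described were 10 named members, matched to probes by symbol. The pro-survival side held 6 genes, the BCL2 members BCL2L1, MCL1 and BCL2L2 and the IAPs BIRC2, BIRC3 and XIAP. The pro-death side held 4, the BH3-only genes BCL2L11 and BAD and the effectors BAX and BAK1. Matching the transcript identifiers of the probes to these symbols found 15 of 50599 probes, of which 13 passed the filter on dim signals, so that all 10 members were among the 13039 genes tested. The probes left out were a second probe of XIAP and a second probe of BAD. The filter asked for a signal well above background on both arrays of a group, and 5 pro-survival members, BCL2L1, MCL1, BIRC2, BIRC3 and XIAP, passed it through the TIA1 RIP arrays only.

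All samples came from KYSE180, an established human line of esophageal squamous cell carcinoma, and no treatment is named in the labels. RNA immunoprecipitation (RIP) pulls down a protein with an antibody and recovers the RNA held with it. RNA captured from cytoplasmic lysate with an anti-TIA1 antibody (TIA1 RIP, 2 arrays) was compared with total RNA (2 arrays), each labelled from 0.2 μg RNA on a single-colour array. The labels do not say whether the replicates came from separate cultures, so that the spread between them may be technical, and no immunoprecipitate with a control antibody was analysed here. The sources used here do not settle whether the total RNA came from whole cells or from the cytoplasmic lysate, so capture by TIA1 and distribution between nucleus and cytoplasm cannot be told apart in any ratio.

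Total RNA replicate 2 stood apart from the other arrays. Its 75th percentile of signal was 69.9 against 714 to 1514 elsewhere, and its share of spots well above background was 32.2% against 45.8% to 48.4%. Across genes, Pearson's r was 0.733 between the total RNA arrays and 0.932 between the TIA1 RIP arrays, and the replicate 1 arrays of both kinds correlated at 0.936. The 8 squamous markers looked up, such as KRT5 and TP63, were detected on every array. Of 11 markers of leukocytes, fibroblasts and endothelial cells, no more than 4 were detected on any array, and LYZ among them had no matched probe. Because of the dim array, the log2 ratio of each member is given against each total RNA array as well as on the means. Where a member was not well above background on total RNA replicate 2, its value there, and any mean or difference that uses it, is not a measured level and is printed only as the scanner gave it.

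The transcripts of the members differed in composition before any binding was measured. The GENCODE transcripts of the pro-survival members had a GC content of 35.8% to 56.6% (median 42.0%), and those of the pro-death members 45.5% to 65.8% (median 59.7%), against a median of 49.9% over 11595 tested genes with a transcript. In their 3′ untranslated regions (3′ UTRs), the motif AUUUA was present in 7 of 10 members, all 6 pro-survival members and BCL2L11, which is the same share as among all genes. XIAP held 20 copies in 6791 bases, BIRC3 12 in 2301 and MCL1 10 in 2817. BCL2L11 held 8 copies in 4213 bases. The members without it had 3′ UTRs of 162 bases for BAX, 379 for BAD and 1251 for BAK1. Length did not separate them from the rest, since BIRC2 held 3 copies in 487 bases. The motif was searched on the transcript strand only, overlapping matches counted, and 70.0% of 11499 tested genes with a 3′ UTR held it. A match describes the letters and is not evidence of a bound site.

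The 30-base stretch with the most U is printed below for 6 members, because U-rich RNA is what TIA1 is known to prefer and these 6 span the range of the family. All are on GRCh37, lie in the 3′ UTR and are written 5′ to 3′ as RNA, with runs of at least 5 U in capitals.
XIAP (chrX:123042868-123042897, plus strand): aauuuauuuuauuuauuuaauuuucUUUUU
BIRC3 (chr11:102209938-102209967, plus strand): ugugUUUUUUUUUUUaucuaguucuuguau
BCL2L11 (chr2:111924665-111924694, plus strand): uauuguauauuuauuuucugcuuauuuaau
MCL1 (chr1:150548878-150548907, minus strand): uuuugguaaguauuccuuaggUUUUUcuuu
BAX (chr19:49464971-49465000, plus strand): gugggcaUUUUUcuuacuuuuguaauuauu
BAD (chr11:64037483-64037512, minus strand): ggcuuggucccaucggaaguuuuggguuuu
XIAP had 22 U in its stretch, BIRC3 21, BCL2L11 19, MCL1 18, BAX 17 and BAD 12. A stretch at least as rich was found in 21.6% of the tested genes for XIAP and in 59.5% for MCL1, so that such stretches were common. For BAD the share was 92.7%.

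Values below are log2 processed signals minus the 75th percentile of the same array, so that 0 is the level of the 75th percentile spot. A log2 ratio is the mean of the TIA1 RIP arrays minus the mean of the total RNA arrays unless a single array is named. Levels are compared between arrays for 1 gene and not between genes, since probes differ in brightness.

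Among the pro-survival BCL2 members, MCL1 encodes a short-lived guardian of the mitochondrial membrane. Its signal was 1.56 and 1.27 in TIA1 RIP replicates 1 and 2, and 1.02 and -1.66 in total RNA replicates 1 and 2. Both TIA1 RIP arrays were above both total RNA arrays, while the total RNA arrays lay much farther apart than either TIA1 RIP array lay from total RNA replicate 1. The log2 ratio was 1.73 ± 1.05 (SE, n = 2 per group) and did not pass the test (adjusted p = 0.776, limma). It was 0.40 against total RNA replicate 1 and 3.07 against replicate 2, where MCL1 was not well above background. With its value there raised to the faintest detected signal of that array, -1.12, the bound was 5.79-fold. Such a bound is approximate and no strict limit, since BCL2L1 was not well above background on that array at -1.10.

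BCL2L1, which encodes BCL-XL, was measured by a probe printed on 10 spots. Its signal was -0.78 and -0.77 in TIA1 RIP, and -1.20 and -1.10 in total RNA. The values did not overlap between groups, and the gap was small in every pair of arrays. The log2 ratio was 0.38 ± 0.77 (SE, n = 2 per group; adjusted p = 0.907, limma), with 0.43 against total RNA replicate 1 and 0.33 against replicate 2. The SD between spots was 0.042 and 0.041 in TIA1 RIP. In total RNA it was 0.092 for replicate 1 and 0.308 for replicate 2, where the probe was not well above background.

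BCL2L2, which encodes BCL-w, was the only pro-survival member well above background on all 4 arrays. Its signal was 3.65 and 3.57 in TIA1 RIP, and 3.09 and 2.64 in total RNA. It was thus higher in TIA1 RIP in every pair, by 0.52 on average against total RNA replicate 1 and by 0.98 against replicate 2. The log2 ratio was 0.75 ± 0.78 (SE, n = 2 per group; adjusted p = 0.818, limma), which did not pass the test.

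The IAPs BIRC2 and BIRC3 are ubiquitin ligases of the TNF receptor and NF-κB pathways. BIRC2 had signals of 1.42 and 0.89 in TIA1 RIP, and 1.37 and -3.43 in total RNA. TIA1 RIP replicate 1 lay next to total RNA replicate 1, replicate 2 lay under it, and total RNA replicate 2 was far below the rest and not well above background. On the means, its log2 ratio was 2.19 ± 1.49 (SE, n = 2 per group; adjusted p = 0.776, limma), made up of -0.21 against total RNA replicate 1 and 4.59 against replicate 2 (approximate bound 4.84-fold). BIRC2 was above MCL1 on the means as scanned, but with dim signals raised to the faintest detected signal of each array the log2 ratio was 1.03 for BIRC2 and 1.46 for MCL1, so no order was read between them.

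BIRC3 had signals of -1.59 and -1.22 in TIA1 RIP, and -1.61 and -3.04 in total RNA. TIA1 RIP replicate 1 and total RNA replicate 1 differed by only 0.018. The log2 ratio was 0.92 ± 0.86 (SE, n = 2 per group; adjusted p = 0.803, limma), with 0.21 against total RNA replicate 1 and 1.63 against replicate 2. No bound on the fold could be given against total RNA replicate 2, because BIRC3 was not well above background there and the faintest detected signals of that array exceeded its TIA1 RIP signal.

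XIAP, the IAP that blocks caspases directly, turned its direction with the array used as control. Its signal was -0.12 and -0.071 in TIA1 RIP, and 0.77 and -3.15 in total RNA. The TIA1 RIP arrays were 0.053 apart and lay between the total RNA arrays. The log2 ratio was 1.09 ± 1.29 (SE, n = 2 per group; adjusted p = 0.842, limma), and it was -0.87 against total RNA replicate 1 and 3.05 against replicate 2 (approximate bound 2.03-fold). A second XIAP probe, too dim to be kept, was also lower in TIA1 RIP than in total RNA replicate 1, by a log2 ratio of -1.18, although it was not well above background on TIA1 RIP replicate 2.

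**Figure D1:**
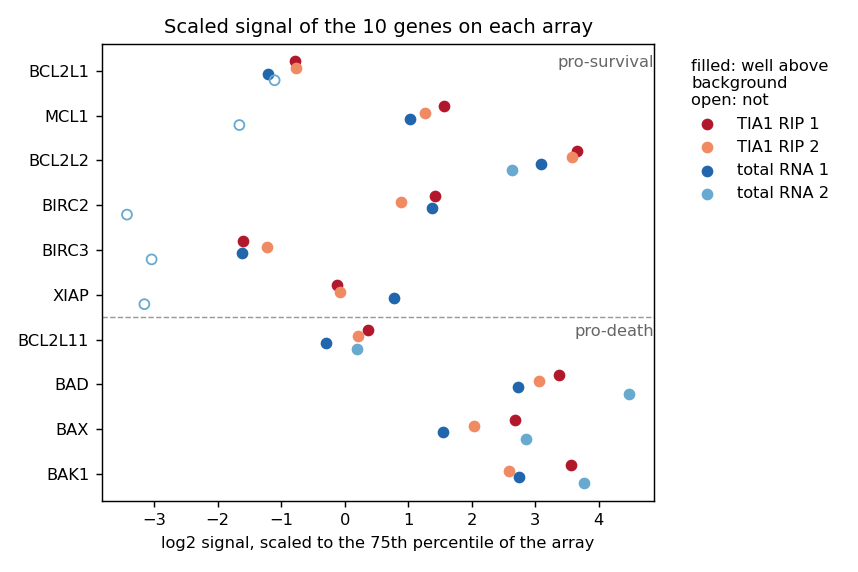
Scaled log2 signal (horizontal axis) of each gene (vertical axis) on the 4 arrays, with pro-survival genes above the dashed line and pro-death genes below it. Open circles mark genes not well above background, which were 5 pro-survival genes on total RNA replicate 2, and on that array BAD, BAX and BAK1 lay to the right of their other values.

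Each pro-death member had a probe well above background on all 4 arrays. BCL2L11, the BH3-only gene for BIM, had signals of 0.36 and 0.21 in TIA1 RIP, and -0.30 and 0.19 in total RNA. The groups did not overlap, with TIA1 RIP replicate 2 only 0.020 above total RNA replicate 2. The log2 ratio was 0.34 ± 0.78 (SE, n = 2 per group; adjusted p = 0.917, limma), with 0.58 against total RNA replicate 1 and 0.096 against replicate 2. Its 3 probes did not move together, with log2 ratios of 1.24, 0.26 and -0.48, and the first of them was not well above background on total RNA replicate 2. The other probes were lower in TIA1 RIP than on that array, with log2 ratios of -0.77 and -1.19. The lack of overlap thus rested on the dim probe and was not measured.

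BAD, a BH3-only protein controlled by phosphorylation, had signals of 3.38 and 3.06 in TIA1 RIP, and 2.73 and 4.48 in total RNA. TIA1 RIP lay between the total RNA arrays, above replicate 1 by 0.49 and below replicate 2 (log2 ratio -1.26). The log2 ratio on the means was -0.38 ± 0.90 (SE, n = 2 per group; adjusted p = 0.919, limma).

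The effectors BAX and BAK1, which open the outer membrane, had the same arrangement on the means of the TIA1 RIP arrays. BAX had signals of 2.69 and 2.03 in TIA1 RIP, and 1.55 and 2.86 in total RNA, with a log2 ratio of 0.15 ± 0.86 (SE, n = 2 per group; adjusted p = 0.969, limma), which was 0.81 against total RNA replicate 1 and -0.50 against replicate 2. Its probes gave nearly equal log2 ratios of 0.16 and 0.15, and the SD between the 10 spots of the first was at most 0.044 on any array. BAK1 had signals of 3.57 and 2.59 in TIA1 RIP, and 2.74 and 3.77 in total RNA, with a log2 ratio of -0.17 ± 0.85 (SE, n = 2 per group; adjusted p = 0.965, limma), which was 0.34 against total RNA replicate 1 and -0.69 against replicate 2. For both effectors the TIA1 RIP and the total RNA values overlapped.

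No member passed the adjusted threshold of 0.05 in either direction, as for all genes, where limma called 0% higher and 0% lower. At an unadjusted p under 0.05, 1.1% of genes were higher and 4.02% lower, and no member was among them. MCL1 had the lowest unadjusted p of the family, 0.141 from limma. Both TIA1 RIP arrays were above both total RNA arrays in 5 of 10 members, BCL2L1, MCL1, BCL2L2, BIRC3 and BCL2L11, against 19.4% of all genes. None of the 10 had both TIA1 RIP arrays below both total RNA arrays, against 21.7% of all genes. Of those 5 members, only BCL2L2 was well above background on all 4 arrays with every probe kept. For BCL2L11 the probes well above background on all 4 arrays were lower in TIA1 RIP than on total RNA replicate 2. Their log2 ratios against that array were -0.77 and -1.19. BCL2L11 entered the count through averaging with a probe not well above background there. BCL2L1, MCL1 and BIRC3 had passed the filter through TIA1 RIP alone, and the order of BIRC3 against total RNA replicate 2 was not measured, so the count of 5 is no support for the family. Members kept through TIA1 RIP alone, BIRC2 and XIAP among them, were unlikely to fall below total RNA replicate 2. The lack of members below both total RNA arrays is thus no support either.

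The study set mRNAs in the immunoprecipitate against GAPDH and asked for a difference past 2.5-fold both on the arrays and in RIP followed by sequencing, which was not analysed here. GAPDH, a glycolytic enzyme used as a reference, had signals of 6.49 and 6.69 in TIA1 RIP, and 7.67 and 9.63 in total RNA. It was lower in TIA1 RIP on all pairs, and the total RNA arrays differed in it by more than the TIA1 RIP arrays. Relative to GAPDH, all 10 members exceeded 2.5-fold on the means, but so did 72.4% of all genes, and 1.62% were past the limit in the other direction. Among the 5 members with a probe detected on all 4 arrays the fold ran from 3.19 for BAD to 7.01 for BCL2L2. The value of BCL2L11, among these, averages in a probe not well above background on total RNA replicate 2. The folds of the other 5 rested on signals of total RNA replicate 2 near background. On the arrays alone, the limit set the family little apart from the rest of the genes.

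Against single arrays the count changed. TIA1 RIP replicate 1 over total RNA replicate 1 put 7 members past the limit (46.0% of all genes), without BIRC2, BIRC3 and XIAP. TIA1 RIP replicate 2 over total RNA replicate 1 put 5 members past it (40.0% of all genes), BCL2L1, BCL2L2, BIRC3, BCL2L11 and BAX. Over total RNA replicate 2, all 10 members passed with either TIA1 RIP array, as did 76.7% and 77.7% of all genes. BCL2L1, BCL2L2, BCL2L11 and BAX passed in all 4 pairs. The share of all genes passing in all 4 pairs was not counted, so no result about these members is read from it. BCL2L1 and a probe of BCL2L11 were also not well above background on total RNA replicate 2. XIAP was the lowest over total RNA replicate 1, at 1.22-fold and 1.09-fold relative to GAPDH.

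Pro-survival members had higher log2 ratios than pro-death members on the means. The median was 1.01 over the 6 pro-survival members (0.38 to 2.19) and -0.011 over the 4 pro-death members (-0.38 to 0.34), a difference of 1.02, while the median of all genes was -0.036. Since 5 of the 6 pro-survival members were kept through TIA1 RIP alone and were not measured on total RNA replicate 2, these medians describe the scanned values and support no difference. No test was made over members chosen by name.

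Against the single total RNA arrays this order held for replicate 2 only. Against total RNA replicate 1, the median of the mean TIA1 RIP signal was 0.30 above it for pro-survival members and 0.54 for pro-death members, so that the difference turned to -0.24, while all genes stood at 0.072. Against total RNA replicate 2, the medians were 2.34 and -0.59, a difference of 2.94, while all genes stood at -0.29. With the 5 members not well above background there placed at their approximate bound, the pro-survival median was 1.00 and the difference 1.59. In the single pairs the difference was -0.50 and -0.083 over total RNA replicate 1 for TIA1 RIP replicates 1 and 2, and 2.42 and 3.38 over total RNA replicate 2. For TIA1 RIP replicate 1 over total RNA replicate 1 the members separated the other way, with pro-survival members from -0.90 to 0.56 and pro-death members from 0.66 to 1.13. The labels do not pair the arrays and each array enters more than 1 pair, so the pairs are not replicates and no SD is given over them.

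**Figure D2:**
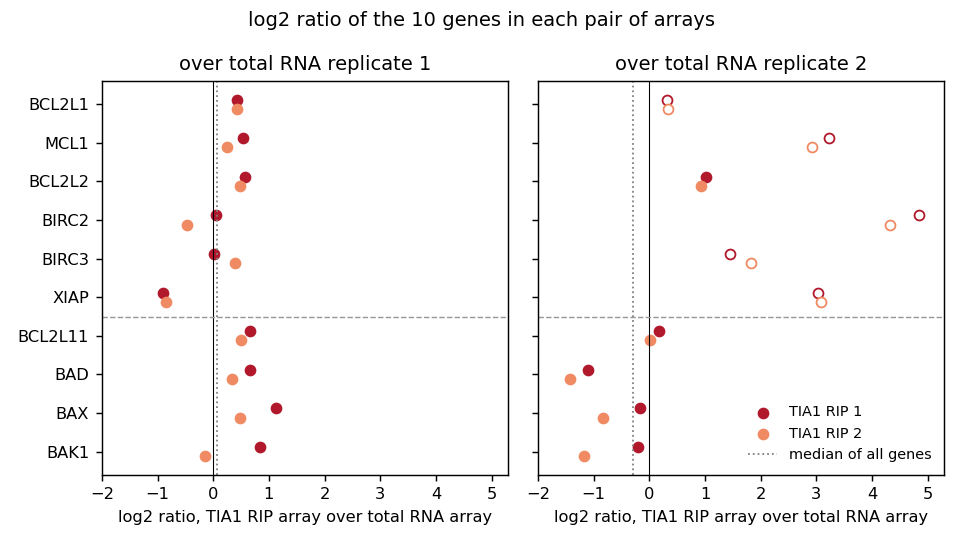
log2 ratio (horizontal axis) of each gene (vertical axis) for each TIA1 RIP array over total RNA replicate 1 (left) and over total RNA replicate 2 (right), with the median of all genes as a dotted line and open circles where the total RNA signal was not well above background. On the left the genes lie between -0.90 and 1.13, with all 4 pro-death genes above the pro-survival genes for TIA1 RIP replicate 1, and on the right all 6 pro-survival genes lie above the pro-death genes, 5 of them as open circles.

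Both TIA1 RIP arrays were above total RNA replicate 1 in 7 members, BCL2L1, MCL1, BCL2L2, BIRC3, BCL2L11, BAD and BAX, against 41.2% of all genes. Both were above total RNA replicate 2 in 7 members too, which were all 6 pro-survival members and BCL2L11, against 39.6% of all genes, but 5 of these 7 were not well above background on that array. BCL2L11 was above it only through averaging with a probe not well above background there.

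The total RNA arrays themselves differed in the family. From replicate 1 to replicate 2, BCL2L2, detected on both, was lower by a log2 difference of -0.45. BIRC2, MCL1 and XIAP were lower too as scanned. They were not well above background on replicate 2, so only approximate bounds can be given for their differences, of -2.48, -2.14 and -1.89. For BCL2L1 and BIRC3, near background on replicate 2 and dim on replicate 1, no direction could be given. All 4 pro-death members were higher on replicate 2 as scanned, by 0.49 for BCL2L11, 1.03 for BAK1, 1.31 for BAX and 1.76 for BAD. The value of BCL2L11 averages in a probe not well above background on replicate 2 and is not a measured difference. Its other probes went from 0.50 to 2.55 and from -0.67 to 0.75. The median as scanned was 1.17 over the pro-death members, against 0.38 over all genes. The TIA1 RIP arrays differed less, with medians of replicate 2 minus replicate 1 of -0.036 for pro-survival and -0.49 for pro-death members. On total RNA replicate 2, 5 pro-survival members and no pro-death member had no probe well above background, against 26.1% of all genes.

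GC content moved with this difference across all genes. The median of total RNA replicate 2 minus replicate 1 went from -2.06 in the decile of genes lowest in GC to 2.09 in the highest decile, while the mean TIA1 RIP signal minus total RNA replicate 1 went only from 0.23 to 0.012. In the same deciles, 63.9% and 4.48% of genes were not well above background on total RNA replicate 2. BIRC2 and BIRC3 were in the lowest decile and BAD in the highest. As scanned, the difference between the total RNA arrays lay within the quartiles of the GC decile for 4 of 10 members, BIRC3, BAD, BAX and BAK1. It lay below the median of the decile for 5 of 6 pro-survival members, of which only BCL2L2 (-0.84 from the median) was measured on both arrays. BCL2L11 was above the median by 1.20 as scanned, with its dim probe averaged in. By definition the quartiles enclose the middle of each decile and the median splits it evenly, so neither count is read as a result about the members. With a straight-line GC trend removed from each array, the medians were 0.89 for pro-survival and 0.70 for pro-death members, and the difference fell to 0.19. The part of GC content, and of the dimness of total RNA replicate 2, in the order of the members was not tested.

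**Figure D3:**
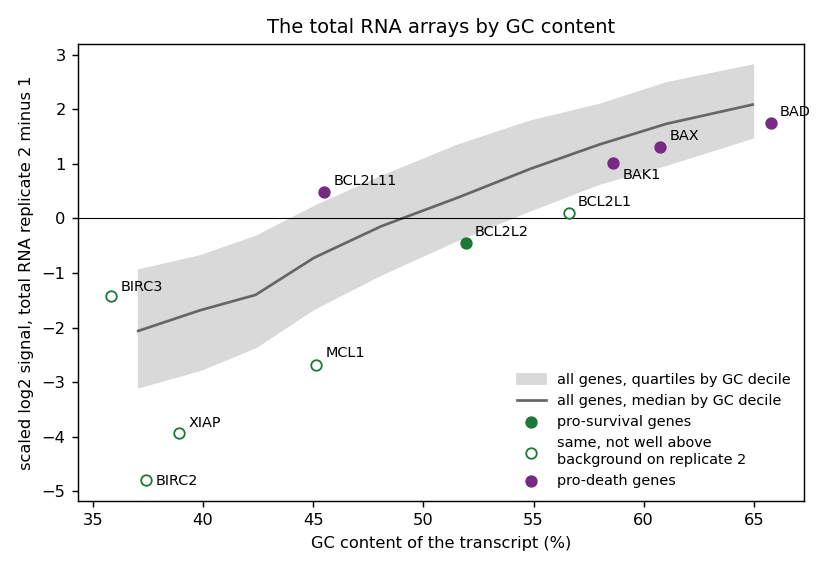
Scaled log2 signal of total RNA replicate 2 minus replicate 1 (vertical axis) against transcript GC content in percent (horizontal axis), with the median and quartiles of all genes by decile of GC content and the 10 members as points, open where not well above background on replicate 2, where the height is the scanned value and not a measured difference. The median of all genes climbs from -2.06 to 2.09, BIRC2, BIRC3, XIAP and MCL1 lie at low GC and below 0, BCL2L2 and BCL2L1 lie further right near 0, and BAD, BAX and BAK1 lie on the upper right.

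The size of the separation also moved with other steps. The difference between pro-survival and pro-death medians was 0.37 with normexp background correction, 0.62 with dim signals raised to the faintest detected signal of each array, and 1.50 after quantile normalization. With probes detected on all 4 arrays it was 0.89, but then rested on BCL2L2 alone against the 4 pro-death members. Leaving out total RNA replicate 1 gave 2.94, and leaving out total RNA replicate 2 gave -0.24.

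**Figure D4:**
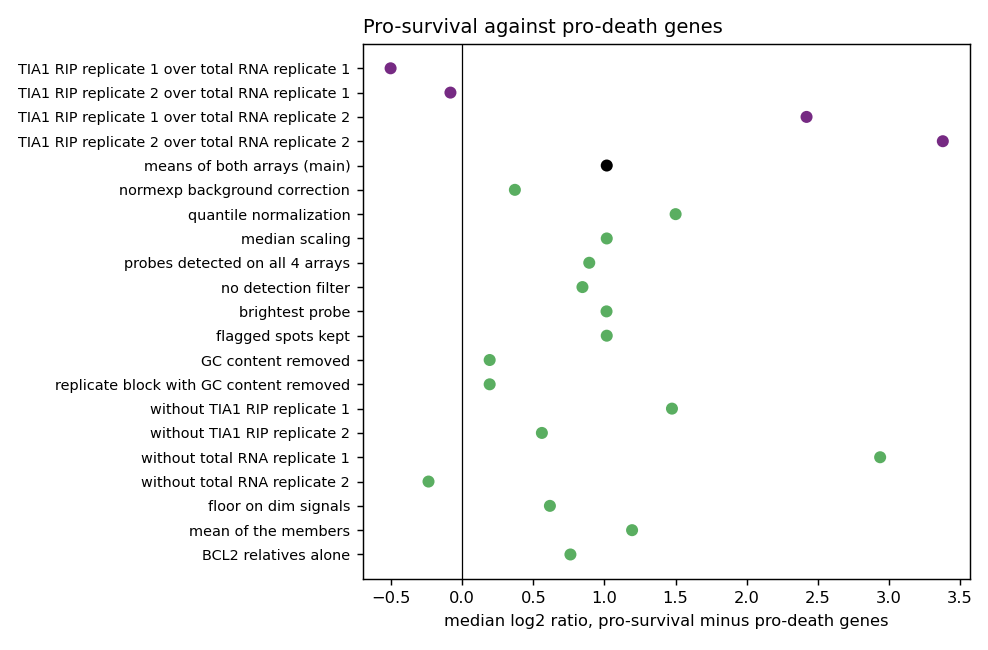
Median log2 ratio of pro-survival genes minus that of pro-death genes (horizontal axis, with the mean in place of the median where so named) for each pair of arrays (purple), on the means of both arrays (black) and under each alternative (green). Points run from -0.50 to 3.38, and the pairs over total RNA replicate 1 and the setting without total RNA replicate 2 lie below 0.

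Leaving out total RNA replicate 1 was also the only alternative under which members passed the adjusted threshold. MCL1 (log2 ratio 3.07, adjusted p = 0.023), BIRC2 (4.59, adjusted p = 0.018) and XIAP (3.05, adjusted p = 0.022) then passed in limma, with the remaining total RNA array assumed to vary like the TIA1 RIP arrays, and 1849 genes were called higher and 2051 lower in all. All 3 were not well above background on that remaining array.

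Other genes of the intrinsic apoptosis pathway were read from a list of 43, of which 35 were tested. None passed the adjusted threshold (lowest adjusted p = 0.776, limma), and at an unadjusted p under 0.05 none was higher and 1 lower. The median log2 ratio was 0.26, against -0.036 for all genes, and it was 0.39 against total RNA replicate 1 and 0.33 against replicate 2. Relative to GAPDH, 31 of 35 exceeded 2.5-fold (88.6%, against 72.4% of all genes) and none was past it in the other direction (1.62% of all genes). Both TIA1 RIP arrays were above both total RNA arrays in 11 of 35 (31.4%, against 19.4% of all genes) and below in 3 (against 21.7%). On total RNA replicate 2, 9 of 35 had no probe well above background (25.7%, against 26.1% of all genes).

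The highest genes detected on all arrays were BNIP3L, a mitophagy receptor related to BCL2, BNIP1, a BCL2-interacting SNARE protein, and CYCS, cytochrome c. BNIP3L had signals of 0.94 and 2.45 in TIA1 RIP, and 0.33 and -0.73 in total RNA, a log2 ratio of 1.90. BNIP1 had signals of 2.07 and 1.59 in TIA1 RIP, and 0.88 and -0.89 in total RNA, a log2 ratio of 1.83. These groups did not overlap, and both genes were higher in TIA1 RIP against either total RNA array, by 1.36 and 2.43 for BNIP3L and by 0.95 and 2.72 for BNIP1. Neither passed the test (adjusted p = 0.776 for each, limma). On total RNA replicate 2 both lay near the faintest detected signal of that array, -1.12, so their ratios against it are uncertain. CYCS had signals of 5.80 and 4.53 in TIA1 RIP, and 5.24 and 1.80 in total RNA, so that its log2 ratio of 1.65 was -0.075 against total RNA replicate 1 and 3.37 against replicate 2.

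HUWE1, a ubiquitin ligase that marks MCL1 for degradation, was the lowest. Its signal was -1.75 and -1.19 in TIA1 RIP, and 1.12 and 0.75 in total RNA. Both total RNA arrays were above both TIA1 RIP arrays, and unlike most of the family its log2 ratio hardly depended on the total RNA array, at -2.60 and -2.23. The log2 ratio on the means was -2.41 ± 0.79 (SE, n = 2 per group), with an adjusted p of 0.776 from limma. The BH3-only gene BMF had signals of -2.21 and -2.74 in TIA1 RIP, and -1.66 and -0.46 in total RNA, a log2 ratio of -1.41 (-0.82 and -2.01 against total RNA replicates 1 and 2). The effector relative BOK had signals of 1.42 and 0.43 in TIA1 RIP, and 1.30 and 2.60 in total RNA, a log2 ratio of -1.02 (-0.37 and -1.67).

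By role, the 7 other pro-death genes had a median log2 ratio of 0.21 against total RNA replicate 1 and -1.17 against replicate 2. The 4 other pro-survival BCL2 relatives had medians of 0.21 and -0.085. The 5 apoptosome and caspase genes had medians of 0.53 and 2.44. Not well above background on total RNA replicate 2 were 2 of the 4 pro-survival relatives, 1 of the 7 pro-death genes and 1 of these 5. The medians against that array are therefore as scanned. Against total RNA replicate 1 the other pro-survival and other pro-death genes thus had the same median to 2 decimals, and no group difference was tested.

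**Figure D5:**
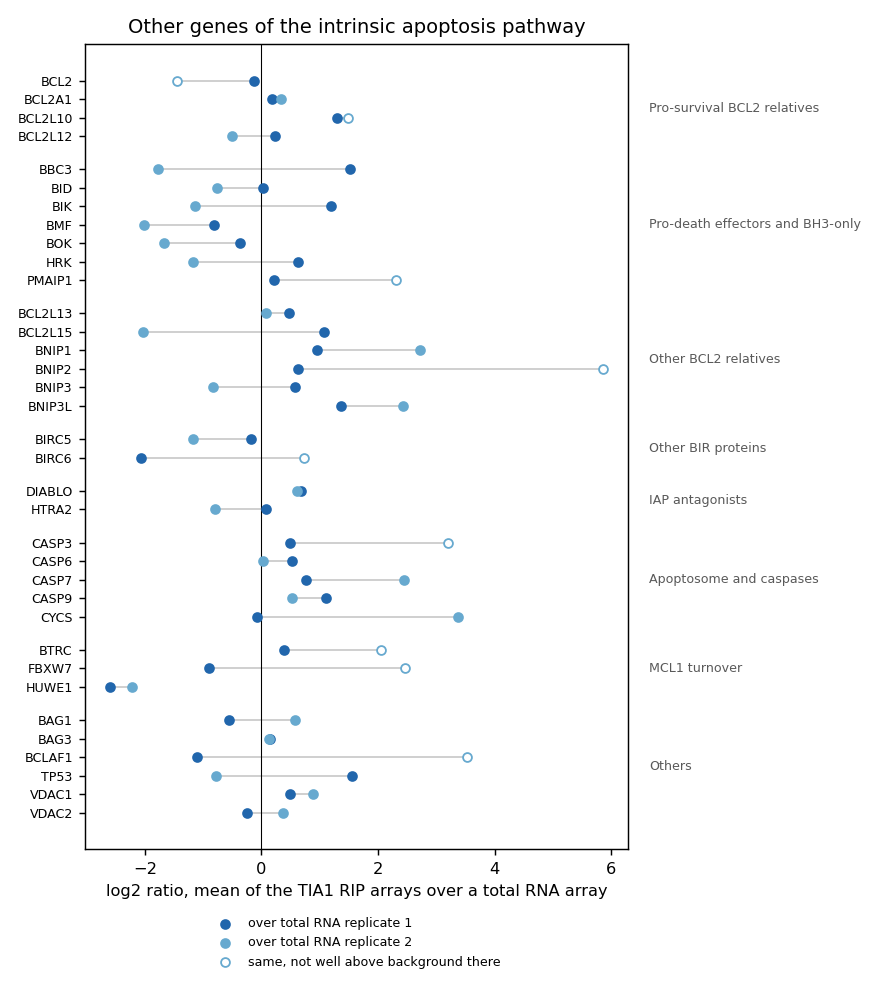
log2 ratio of the mean TIA1 RIP signal over total RNA replicate 1 (dark points) and over replicate 2 (light points, open where not well above background), on the horizontal axis, for the 35 other apoptosis genes tested, grouped by role. A gene's line joins its values, and HUWE1 lies at -2.60 and -2.23 while CYCS goes from -0.075 to 3.37.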

How the data were processed

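The authors scanned 4 single-colour Agilent arrays and deposited Agilent Feature Extraction output (10.7.1.1 per the file headers, which name hg19). The deposited values are intensities on a linear scale, not normalized between arrays: the background-subtracted processed signal, and raw median signals. How the authors scaled the arrays in GeneSpring is not given in the sources used here. All arrays lay on 1 slide with 1 scan, and batches of the immunoprecipitation, RNA preparation or labelling are not given in the sources used here.

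The processed signal was converted to log2, spots flagged as uneven or deviant (299 to 382 per array) were left out, and each array was scaled by subtracting its 75th percentile. Probes well above background (share of spots at least 0.5) on both arrays of a group were kept (20099 of 50599), and probes of a symbol were averaged to 13039 genes. Symbols came from RefSeq accessions (a later assembly, names only) and GENCODE transcripts on GRCh37 and were found for 34510 probes. With only 2 arrays in each group, precision was limited by their number. limma 3.58.1 in R 4.3.3 tested TIA1 RIP against total RNA without a block, with Benjamini-Hochberg adjustment over all genes and a threshold of 0.05, after a test on simulated data. A bound against total RNA replicate 2 is the mean TIA1 RIP signal over the faintest probe well above background there, or over the gene's own scanned value where that was higher. It is approximate, since a probe not well above background could lie above the faintest detected one. Figures used matplotlib 3.10.9 in Python 3.11.15.

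The members and lists were chosen with earlier results of these data known. The genes named are the 10 members, GAPDH, and of the other apoptosis genes detected on all arrays the 3 highest and 3 lowest by log2 ratio. Alternatives covered background correction, scaling, filters, choice of probe, flagged spots, reference gene, fold limit, summary, GC content, the replicate number as a block, and each array left out. A floor on dim signals was added after the data had been seen.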

Additional observations from a re-analysis of the deposited data

How the results depend on the processing

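All results rest on 2 arrays per group, and on total RNA replicate 2 many signals were near background. Of 145 member values under alternatives, 122 kept their direction and side of the threshold, 3 newly passed it and 20 turned direction. The labels give same-numbered arrays no shared culture or batch, and their deviations correlated at 0.453 across genes, so the numbers were not used to pair them. With the replicate block, 57 genes were called higher and 299 lower in place of 0, and the lowest adjusted p of a member was 0.200. Without 1 array, BAD ranged from -1.26 to 0.49, BAX from -0.50 to 0.81, BAK1 from -0.69 to 0.34, BIRC2 from -0.21 to 4.59 and XIAP from -0.87 to 3.05. Calls without 1 array ranged from 0 to 1849 higher and from 0 to 2051 lower (7 lower without TIA1 RIP replicate 1). The members past 2.5-fold relative to GAPDH were 5 after quantile normalization, 5 with probes detected on all 4 arrays (only 5 members were then tested), 2 with the median of all genes as reference, and 7 to 10 without 1 array. The other apoptosis genes past it were 14 after quantile normalization and 18 to 31 without 1 array. Their median log2 ratio was -0.0098 with no detection filter. The pro-survival minus pro-death difference ranged from -0.24 without total RNA replicate 2 to 2.94 without total RNA replicate 1.

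Turned log2 ratios were, with normexp, 0.073 for BAD and 0.28 for BAK1. Quantile normalization gave 0.0082 for BAK1. Probes detected on all 4 arrays gave -0.11 for BCL2L11. GC content removed, with or without the block, gave -0.27 for BIRC3, -0.056 for BCL2L11, 0.89 for BAD and 0.51 for BAK1. The floor gave -0.042 for BIRC3. Without total RNA replicate 2, BIRC2 and XIAP were lower in TIA1 RIP and BAD and BAK1 higher. BAX was lower without total RNA replicate 1 or TIA1 RIP replicate 1, and BAK1 was higher without TIA1 RIP replicate 2. MCL1 (3.07), BIRC2 and XIAP newly passed the threshold without total RNA replicate 1. The cause was not tested. normexp used the raw median signal of each spot in place of the planned mean signal.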
